A study of Gallus gallus with 12 samples.

Results

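Collagen genes were taken as every row of the expression files whose symbol was COL, a type number, A and a chain number. There were 41 such genes among 18332, and they formed 9 fibrillar, 8 basement membrane and 24 other collagens. The basement membrane group held the 6 type IV chains with COL15A1 and COL18A1. RNA-seq values were available for HFD abdominal fat, ND abdominal fat, HFD liver and ND liver, with 3 samples in each of the 4 groups. HFD denotes the high-fat diet and ND the normal control diet. All birds were female dwarf type Xinghua chickens, a Chinese native broiler, labelled as 8 weeks old, which in the study's methods is the age at the start of the diets. Every bird of both diets carried the dw gene, a growth hormone receptor mutation. By those methods 3 birds per diet gave both tissues, so the 12 samples came from 6 birds, but no label ties a sample number to a bird. The study chose HFD birds with a higher abdominal fat rate and ND birds with a lower one for sequencing, so diet and this choice cannot be told apart. Values are FPKM, which count fragments relative to transcript length and to all mapped fragments of the sample, so levels can be set side by side between genes. The read number behind each value is unknown.

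A collagen molecule is a triple helix of 3 chains, which come from 1 gene or from several, and roles given here are known mainly from human and mouse work. Fibrillar collagens assemble into the rope-like fibrils that give connective tissue its strength, with types I and III as the main soft tissue forms and type V as the chain that helps to start a fibril. Type IV chains form the sheet-like network of basement membranes, the thin layer that surrounds adipocytes and blood vessels, and types XV and XVIII are proteoglycan collagens of that zone. Type VI forms beaded filaments between cells and fibrils and is known as an abundant matrix protein of adipose tissue. The FACIT members attach to the surface of other fibrils. In liver, collagen is known to be made mainly by hepatic stellate cells and portal fibroblasts, and the sinusoids lack a continuous basement membrane.

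The samples matched their tissue labels. All 6 adipocyte markers were higher in abdominal fat (summed 12701 to 15611 FPKM in fat and 68.3 to 257.0 FPKM in liver), and all 7 hepatocyte markers were lower (596 to 5062 FPKM in fat and 95192 to 119084 FPKM in liver). A pair of fat libraries stood apart. ND fat 2 held 2887 FPKM of ALB, the serum albumin of hepatocytes, against 0.86 to 70.0 FPKM in the other fat samples. HFD fat 1 held 47.0 FPKM of CKM, the muscle creatine kinase, against 0.05 to 0.69 FPKM in the other fat samples. Replicates within a group correlated at 0.962 to 0.985 over log2 values of the tested genes, as a description. Collagen counts were also computed without this pair, an alternative added after seeing the data.

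In abdominal fat, collagen transcripts were among the most abundant RNAs. They summed to 9233 to 12275 FPKM, which was 1.87% to 2.55% of all FPKM in a sample. In liver they summed to 157.1 to 368.0 FPKM, or 0.0254% to 0.0603% of all FPKM. The mean sum was 46.1 times as high in fat as in liver, on FPKM as deposited. The 10 most abundant genes held 9.30% to 9.95% of all FPKM in fat and 25.6% to 30.1% in liver. Trimmed mean scaling, which divides values by 1.28 to 1.37 in fat and 0.71 to 0.82 in liver, would lower this ratio. In bulk tissue, fewer collagen-making cells and less collagen RNA per cell cannot be told apart.

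**Figure D1:**
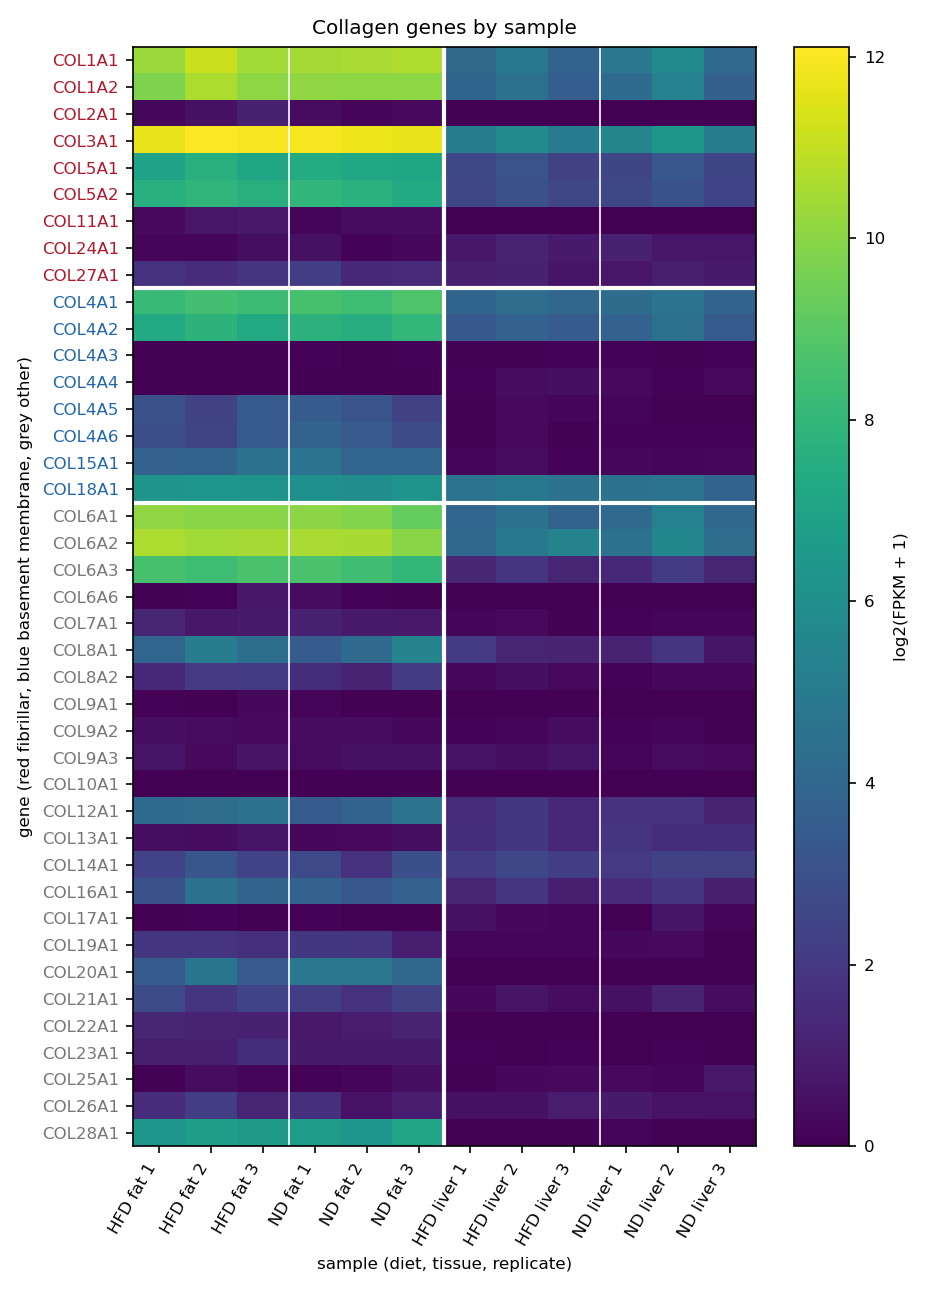
Heat map of log2(FPKM + 1) for the 41 collagen genes (rows, coloured by class) in the 12 samples (columns, abdominal fat left of liver and HFD left of ND). COL3A1, COL1A1, COL6A2, COL1A2 and COL6A1 are the brightest rows in every fat sample, and in liver no member exceeds the 82.8 FPKM of COL3A1 in ND liver 2.

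In fat the fibrillar chains carried most of this RNA. COL3A1, the single chain of type III collagen, had 3283, 4404 and 3949 FPKM in HFD fat and 3867, 3540 and 3338 FPKM in ND fat. It had 34.3, 51.9 and 30.4 FPKM in HFD liver and 45.2, 82.8 and 33.3 FPKM in ND liver. The lowest fat sample was far above the highest liver sample, and COL3A1 ranked between 5 and 7 among all genes in each fat sample, against 810 to 1926 in liver. It alone gave 34.7% to 38.4% of collagen FPKM in fat. It was also the first collagen in all livers except HFD liver 3, where COL6A2 was.

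COL1A1 and COL1A2, the chains of type I collagen, followed the same order. COL1A1 had 1228, 2260 and 1383 FPKM in HFD fat and 1414, 1519 and 1602 FPKM in ND fat, with 17.1, 29.2 and 13.6 FPKM in HFD liver and 27.2, 53.2 and 16.5 FPKM in ND liver. COL1A2 had 869, 1588 and 1056 FPKM in HFD fat and 1093, 1045 and 1074 FPKM in ND fat, with 13.8, 20.9 and 11.4 FPKM in HFD liver and 17.8, 39.6 and 12.3 FPKM in ND liver. Neither gene overlapped between the tissues. Within each tissue one library led both type I genes, HFD fat 2 in fat and ND liver 2 in liver.

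Among basement membrane chains, COL4A1 and COL4A2, which together form the common type IV network, were highest in fat. COL4A1 had 292.3, 359 and 310.3 FPKM in HFD fat and 385, 328 and 442 FPKM in ND fat, against 14.1, 19.2 and 15.0 FPKM in HFD liver and 18.2, 23.8 and 13.3 FPKM in ND liver. COL4A2 had 165.7, 222 and 163.6 FPKM in HFD fat and 219.9, 184.9 and 259 FPKM in ND fat, against 8.96, 12.9 and 10.04 FPKM in HFD liver and 12.8, 21.4 and 9.81 FPKM in ND liver. COL18A1, whose end piece is the angiogenesis inhibitor endostatin, was closest between the tissues of the abundant members. It had 74.9, 82.3 and 75.8 FPKM in HFD fat and 67.0, 59.99 and 73.0 FPKM in ND fat, against 23.4, 28.8 and 22.0 FPKM in HFD liver and 22.6, 23.1 and 13.4 FPKM in ND liver. It stood 12th among collagens by mean level in fat and 4th in liver, where its mean of 22.2 ± 4.97 FPKM lay within the spread of COL1A1 (26.1 ± 14.7 FPKM) and COL6A1 (20.3 ± 9.82 FPKM; SD, n = 6 each).

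The type VI chains led the remaining collagens. COL6A2 had 1566, 1360 and 1418 FPKM in HFD fat and 1511, 1461 and 999 FPKM in ND fat, against 15.7, 29.1 and 42.1 FPKM in HFD liver and 22.5, 46.1 and 19.1 FPKM in ND liver. COL6A1 had 1079, 987 and 987 FPKM in HFD fat and 1015, 919.7 and 612 FPKM in ND fat, against 14.3, 22.4 and 13.6 FPKM in HFD liver and 16.8, 39.3 and 15.3 FPKM in ND liver. COL6A3, the long chain whose end piece is endotrophin in mammals, had 387, 319.6 and 394 FPKM in HFD fat and 399, 334 and 257 FPKM in ND fat, against 1.43, 2.65 and 1.38 FPKM in HFD liver and 1.66, 3.10 and 1.40 FPKM in ND liver. ND fat 3 was the lowest fat sample for all 3 type VI genes. Other abundant collagens were mixed there. COL5A2 (166.1 FPKM) was also lowest in ND fat 3, while COL4A1 (442 FPKM), COL4A2 (259 FPKM) and COL28A1 (133.6 FPKM) were highest. That sample also had the lowest sum of the 6 fibroblast markers, at 949 FPKM against 1350 to 2020 FPKM in the other fat samples. Of these markers 4 were lowest there, among them MFAP5 (431 FPKM) and PI16 (118.3 FPKM), while THY1 was within the range of the others and TCF21 was the highest of the fat samples (62.8 FPKM). The part of this in the type VI values was not tested.

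Setting the tissues against each other asked how far the collagen programme differs between the organ that stores fat and the organ that makes most of it in birds. Collagens were higher in fat as a group, and they were higher on both diets. On log2(FPKM + 1), COL6A3, COL28A1, COL3A1 and COL1A1 differed most. The added 1 shrinks the differences of genes near 0 in liver. By plain ratio of mean FPKM, COL28A1 (1860) and COL20A1 (1042) came first, ahead of COL6A3 (180). The liver means of COL28A1 and COL20A1 were 0.053 and 0.018 FPKM, near the limit of values given with 2 decimals, so these 2 ratios are imprecise. COL22A1, at 0 in every liver, has no ratio. A gene was called when its adjusted p in limma was at most 0.05 and its log2 fold change on log2(FPKM + 1) was at least 1 in size. Of 38 members tested, 23 were called higher in fat and 1 was called lower. Among all 15442 genes tested, 30.2% were called higher and 8.7% lower. The median log2 fold change of the members was 1.66, against 0.52 for all genes. The test took the 12 samples as independent, although tissues share birds.

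The general shift of 0.52 towards fat depended on scaling, since it was 0.02 with trimmed mean (TMM) scaling and 0.01 with quantile normalization. The calls over all genes were 4656 higher and 1343 lower as deposited, against 2549 higher and 2200 lower with TMM scaling and 2561 higher and 2152 lower with quantile normalization. Under TMM scaling 21 members were called higher and 1 lower, where 16.5% of all genes were called higher and 14.2% lower. Quantile normalization also gave 21 higher and 1 lower. Relative to the median of all genes, the largest differences of the named members were 6.39 for COL6A3, 6.03 for COL28A1, 5.86 for COL3A1 and 5.45 for COL1A1 on the log2 scale.

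Of the 9 fibrillar genes, 5 were called higher, against 30.2% of all genes, and their class median log2 fold change was 4.51. These were COL3A1 (6.38 ± 0.21), COL1A1 (5.97 ± 0.27), COL1A2 (5.89 ± 0.26), COL5A2 (4.99 ± 0.14) and COL5A1 (4.51 ± 0.17; log2 fold change ± SE, 6 fat and 6 liver samples). The type V genes COL5A1 and COL5A2 had lowest, median and highest values of 125.2, 146.3 and 194.2 FPKM and of 166.1, 206 and 249 FPKM in fat. In liver they had 4.20, 4.98 and 8.84 FPKM and 4.40, 5.12 and 7.35 FPKM. The other 4 fibrillar genes were scarce in both tissues.

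COL27A1, a fibrillar chain of growing cartilage in mammals, was higher in fat by 0.80 ± 0.15 on the log2 scale, with 1.53 to 3.81 FPKM in fat and 0.62 to 1.16 FPKM in liver. The cartilage chains COL2A1 (0.45 ± 0.12) and COL11A1 (0.48 ± 0.09) passed the adjusted p alone, from 0.15 to 1.14 FPKM and from 0.17 to 0.77 FPKM in fat, and at or below 0.02 FPKM in liver. Of 6 cartilage markers listed beside them, 3 were called higher in fat, against 30.2% of all genes. A log2 fold change above 0 was found for 5 of them, and for 11604 of all 15442 genes. CHAD had 123.0 to 261.9 FPKM in fat and 0.27 to 0.92 FPKM in liver. COMP had 53.75 to 107.1 FPKM in fat and 0.57 to 1.04 FPKM in liver. SOX9, a regulator of cartilage, was not higher in fat, with 0.59 to 2.19 FPKM in fat and 1.15 to 2.30 FPKM in liver. The part of cartilage cells in the low values of these fibrillar genes was not tested. COL24A1, a chain of the type known from developing bone in mouse, went against its class. It had 0.12, 0.17 and 0.37 FPKM in HFD fat and 0.45, 0.10 and 0.19 FPKM in ND fat, against 0.69, 1.26 and 0.83 FPKM in HFD liver and 1.14, 0.65 and 0.68 FPKM in ND liver. All livers were above all fat samples, and its log2 fold change was -0.60 ± 0.11 (adjusted p = 0.000373 in limma).

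Of the 7 basement membrane genes tested, 6 were called higher, against 30.2% of all genes, with a class median of 3.01. COL4A1 differed by 4.29 ± 0.14, COL4A2 by 3.94 ± 0.18 and COL15A1 by 3.90 ± 0.15 on the log2 scale. COL15A1 had 13.1 to 23.3 FPKM in fat and 0.08 to 0.27 FPKM in liver. The neighbouring genes COL4A5 and COL4A6, whose products join into a type IV network in smooth muscle and other basement membranes, had 4.08 to 10.6 FPKM and 4.64 to 13.7 FPKM in fat. In liver both stayed at or below 0.22 FPKM. COL18A1 had the smallest called difference of the class at 1.68 ± 0.13, and TMM scaling took it to 0.92, under the limit of 1.

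COL4A3 and COL4A4, the partners of COL4A5 in the kidney glomerulus of mammals, were near 0 in both tissues. COL4A3 had 0.01 to 0.09 FPKM in fat and 0.05 to 0.10 FPKM in liver and was not tested, as its mean was under 0.1 FPKM. COL4A4 went against its class, with 0.03, 0.00 and 0.00 FPKM in HFD fat and 0.01 FPKM in each ND fat, against 0.07, 0.32 and 0.39 FPKM in HFD liver and 0.23, 0.08 and 0.22 FPKM in ND liver. The livers were all higher, and the log2 fold change was -0.26 ± 0.07 (adjusted p = 0.00545 in limma), a value that the added 1 makes small.

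Of the 22 other collagens tested, 12 were called higher and 1 lower, against 30.2% and 8.7% of all genes, with a class median of 1.27. The type VI genes stood first, with log2 fold changes of 6.91 ± 0.17 for COL6A3, 5.62 ± 0.26 for COL6A2 and 5.53 ± 0.23 for COL6A1. COL28A1, a relative of type VI that is found around peripheral glia in mouse, had 79.8, 107.5 and 93.4 FPKM in HFD fat and 99.2, 81.8 and 133.6 FPKM in ND fat. In liver it had 0.01, 0.01 and 0.06 FPKM on HFD and 0.16, 0.05 and 0.03 FPKM on ND. The difference was 6.55 ± 0.12, while the other 11 of the 12 collagens with the highest means in fat had at least 1.38 FPKM in every liver.

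The FACIT genes ranged from large differences to none. COL20A1, known from chick embryo cornea and skin, had 9.29 to 27.9 FPKM in fat and at most 0.04 FPKM in liver (log2 fold change 4.18 ± 0.23). COL12A1, which binds type I fibrils in tendon and other dense tissue, differed by 2.57 ± 0.19 and COL16A1 by 2.30 ± 0.26. COL21A1 (1.64 ± 0.19) and COL19A1 (1.52 ± 0.15) were called at lower levels, with 2.27 to 5.55 FPKM and 1.03 to 2.89 FPKM in fat. COL22A1, a collagen of tissue junctions, had 0.76 to 1.47 FPKM in fat and was listed at 0 in all 6 livers, so no fold is given, although it counts among the calls. Its call was lost with TMM scaling, with quantile normalization and on ND alone.

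COL14A1, the fibril-associated relative of COL12A1, was the only one of the 12 collagens with the highest means in liver that did not pass the adjusted p. It had 4.34, 8.38 and 4.48 FPKM in HFD fat and 5.42, 2.30 and 6.82 FPKM in ND fat, against 3.40, 5.03 and 3.67 FPKM in HFD liver and 3.01, 4.04 and 3.95 FPKM in ND liver. The tissues overlapped, and its log2 fold change of 0.31 ± 0.22 (95% interval -0.17 to 0.80) turned to -0.32 with TMM scaling and -0.45 with quantile normalization. COL9A3 (0.08) turned to -0.14 and -0.25 under the same scalings, and COL9A2 (0.19) to -0.01 with quantile normalization. Both are cartilage collagens, and both were under 0.7 FPKM in every sample.

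The network-forming COL8A1, a chain of vessel walls and of the corneal membrane, differed by 3.05 ± 0.34, and its partner COL8A2 by 1.44 ± 0.16, which quantile normalization took to 0.96. COL8A1 varied widely within each tissue, with 10.2 to 41.5 FPKM in fat and 0.61 to 3.16 FPKM in liver. COL7A1, the anchoring fibril of skin, was higher in fat by 0.77 ± 0.09, and COL26A1 by 0.68 ± 0.20. The transmembrane collagen COL23A1 was just under the limit at 0.97 ± 0.09 and passed it, at 1.01, without HFD fat 1 or without HFD fat 2. Without both HFD fat 1 and ND fat 2, which held muscle and hepatocyte transcripts, 24 members were called higher and 1 lower. Of all 15395 genes in this setting, 4702 were called higher and 1349 lower.

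COL13A1, a transmembrane collagen of cell contacts and the nerve-muscle synapse, was the 1 member called lower in fat. It had 0.40, 0.30 and 0.61 FPKM in HFD fat and 0.21, 0.24 and 0.35 FPKM in ND fat, against 2.03, 2.95 and 1.56 FPKM in HFD liver and 2.55, 1.99 and 1.98 FPKM in ND liver. Every liver was above every fat sample, and the log2 fold change was -1.23 ± 0.11 (adjusted p = 1.15e-06 in limma). COL17A1, the hemidesmosome collagen of epithelia, had a log2 fold change of -0.25 (adjusted p = 0.052 in limma), with 0.01 to 0.07 FPKM in fat and 0.00 to 0.61 FPKM in liver. COL6A6 and COL25A1 did not pass either, and COL9A1 and COL10A1 were not tested, as their means were under 0.1 FPKM.

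**Figure D2:**
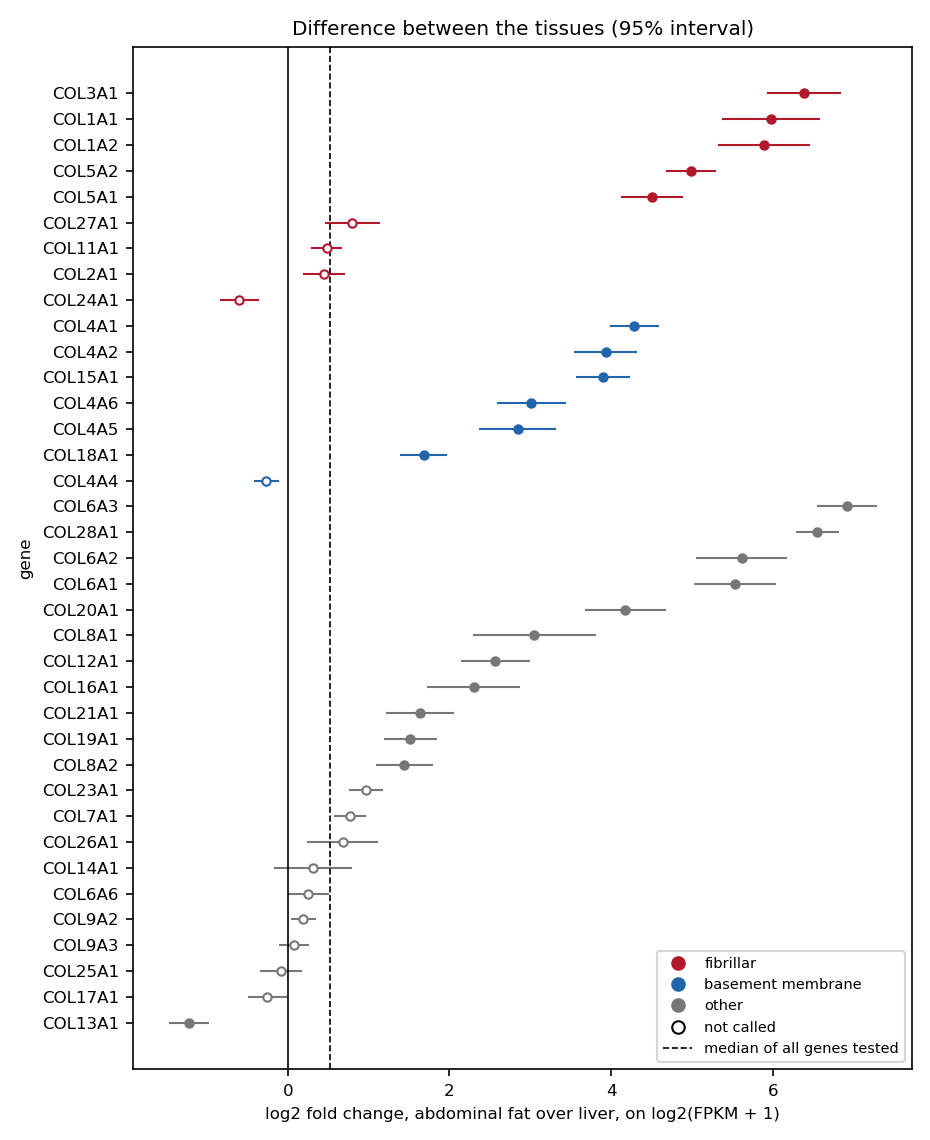
Log2 fold changes of abdominal fat over liver on log2(FPKM + 1), 1 row per collagen gene tested, with 95% intervals from limma and colours by class. Filled points passed an adjusted p of at most 0.05 and a fold limit of 1, the dashed line is the median of all genes at 0.52, and COL22A1, listed at 0 in all livers, is left out. Types VI, XXVIII, III and I lie farthest right, and COL13A1 is the single filled point left of 0.

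By plain separation of samples, 29 of the 41 members had every fat sample above every liver sample, 3 (COL24A1, COL4A4 and COL13A1) had every liver above, and 9 overlapped. Among all genes tested, 50.3% had all fat samples above and 11.4% had all livers above. The difference was present within each diet. On HFD 24 members were called higher in fat and 1 lower, where 27.8% and 8.87% of all genes were. On ND 22 were called higher and 1 lower, where 33.0% and 8.31% of all genes were.

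The classes took different shares of the collagen RNA in the 2 tissues. Fibrillar genes gave 60.4% to 70.8% of collagen FPKM in fat (mean 65.7%) and 36.0% to 52.6% in liver (mean 46.0%). Basement membrane genes gave 5.59% to 8.65% in fat (mean 6.46%) and 18.6% to 27.6% in liver (mean 24.4%). Neither share overlapped between the tissues. Without COL3A1 and COL1A1, the fibrillar shares overlapped, at 24.2% to 36.1% in fat and 15.8% to 24.8% in liver, while the basement membrane shares did not (11.3% to 18.6% in fat and 29.6% to 39.6% in liver). The other collagens gave a mean of 27.9% in fat and 29.6% in liver, with overlap. In level, the mean fibrillar sum was 64.6 times as high in fat as in liver. The mean sum of other collagens was 43.5 times and the mean basement membrane sum 12.5 times as high. These ratios are of FPKM as deposited, and TMM scaling would lower each of them. COL18A1 weighed on the basement membrane share of liver, which was 13.8% with COL15A1 and COL18A1 counted among the other collagens. These shares describe sums of few genes and were not tested.

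**Figure D3:**
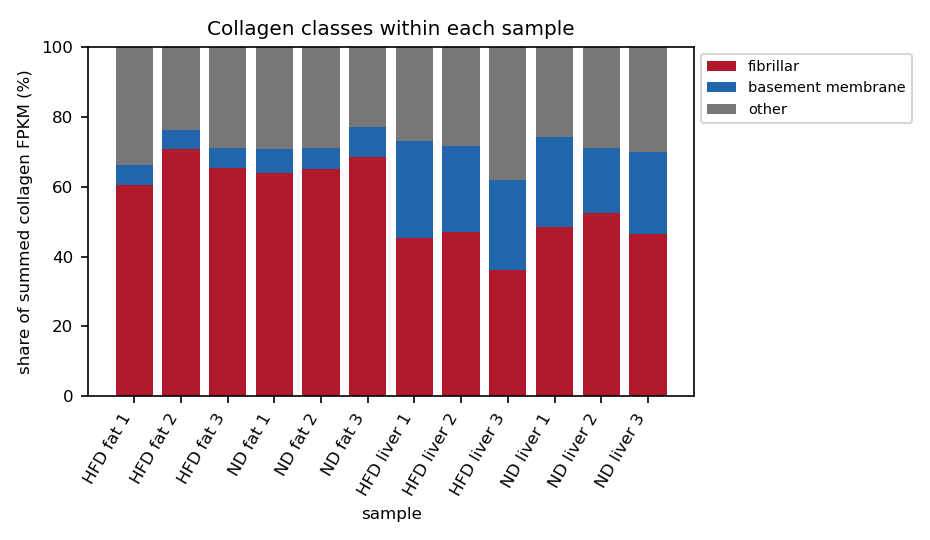
Stacked bars of the share of summed collagen FPKM (%) given by fibrillar, basement membrane and other collagens, 1 bar per sample, abdominal fat left of liver and HFD left of ND. Fibrillar shares are 60.4% to 70.8% in fat and 36.0% to 52.6% in liver, and basement membrane shares 5.59% to 8.65% and 18.6% to 27.6%.

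Ratios between chains that join in 1 molecule were compared as a description. COL1A1 to COL1A2, the pair of type I collagen, had lowest, median and highest ratios of 1.29, 1.42 and 1.49 in fat and 1.199, 1.34 and 1.53 in liver. The ratio overlapped although the levels of both genes did not. COL4A1 to COL4A2, neighbouring genes that share a promoter region in mammals, was 1.62 to 1.898 in fat and 1.11 to 1.57 in liver, with every fat sample above. COL5A1 to COL5A2 went the other way, at 0.626 to 0.818 in fat and 0.832 to 1.203 in liver. COL4A5 to COL4A6 overlapped, at 0.712 to 1.06 in fat and 0.25 to 3.00 in liver. Both genes were at or below 0.22 FPKM in every liver, in values given with 2 decimals, so the liver ratios are imprecise. COL8A1 to COL8A2 also overlapped, at 5.02 to 12.8 in fat and 3.14 to 16.6 in liver. COL3A1 to COL1A1, chains of different molecules, overlapped too, at 1.95 to 2.86 in fat and 1.55 to 2.23 in liver.

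Among the type VI chains, 1 ratio differed between the tissues and 1 overlapped. COL6A3 to COL6A2 was 0.229 to 0.278 in fat and 0.0328 to 0.0912 in liver, with no overlap. COL6A1 to COL6A2 overlapped, at 0.613 to 0.726 in fat and 0.324 to 0.912 in liver. The lowest ratio came from HFD liver 3, which had 42.1 FPKM of COL6A2 beside 13.6 FPKM of COL6A1, while COL6A1 and COL6A2 in the other livers gave at least 0.745. COL18A1 to COL4A1, products of the same membranes but not of 1 molecule, was 0.165 to 0.256 in fat and 0.969 to 1.66 in liver.

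**Figure D4:**
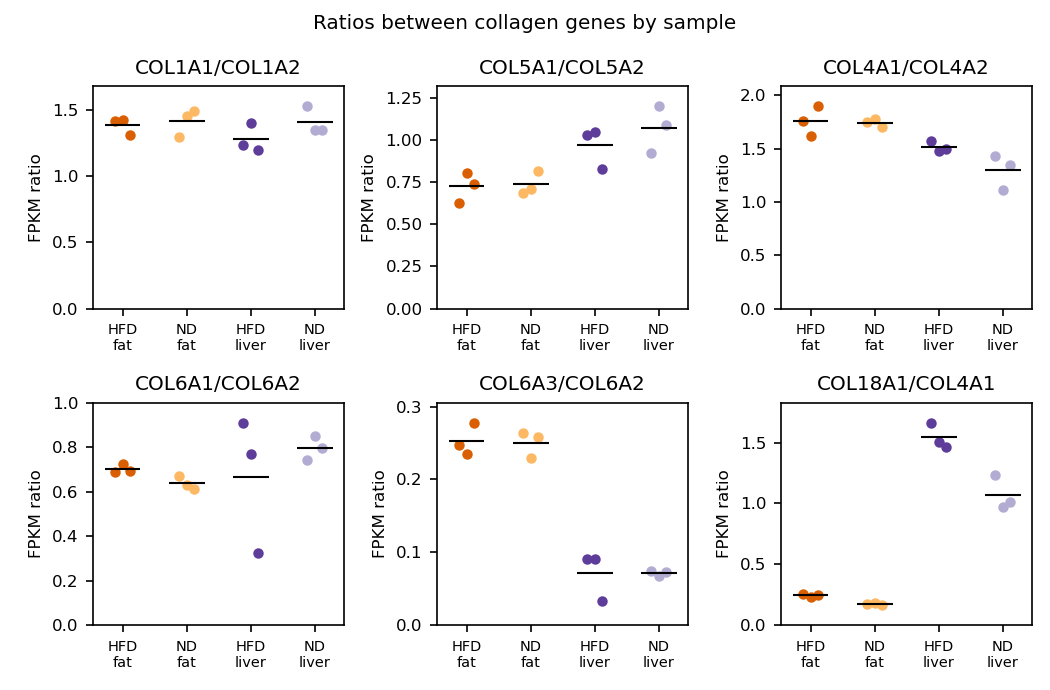
Ratios of FPKM between pairs of collagen genes in each sample, with HFD fat, ND fat, HFD liver and ND liver from left to right, 1 point per sample and a line at the group mean. COL1A1/COL1A2 overlaps between the tissues, COL6A3/COL6A2 is higher in every fat sample, COL18A1/COL4A1 is higher in every liver, and COL6A1/COL6A2 of HFD liver 3 stands apart at 0.324.

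Genes that fold, process, bind or break down collagen, or that inhibit its breakdown, were listed as partners. Of 17 genes for folding and modification, 9 were called higher in fat and 0 lower, while P4HB and TMEM38B passed the adjusted p alone in the lower direction (-0.94 and -0.40 on the log2 scale). The collagen chaperone SERPINH1 differed by 4.65, and the prolyl hydroxylase chains P4HA3 by 3.92 and P4HA2 by 3.01 on the log2 scale, with FKBP10, a peptidyl-prolyl isomerase that helps collagen fold, at 3.38. Of 12 genes for processing and cross-linking, 9 were called higher and 0 lower. Those higher included the lysyl oxidases LOXL1 (6.75) and LOX (5.87) and TLL1 (3.44), a propeptide-cleaving protease in mammals. The lysyl oxidase LOXL4 passed the adjusted p alone in the lower direction (-0.96). It had 0.27 to 0.61 FPKM in fat and 1.07 to 2.32 FPKM in liver, and on ND alone it was called lower (-1.04). These fold changes include the general shift of 0.52 over all genes, of which 30.2% were called higher.

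For the lists that follow, the shares over all genes were 30.2% called higher and 8.7% called lower. Lists were counted on FPKM as deposited alone. With TMM scaling the shares over all genes were 16.5% and 14.2%, and the lists were not counted there. Of 8 proteoglycans that bind fibrils, 6 were called higher and 0 lower, with ASPN at 6.86, PRELP at 6.87 and OGN at 6.38. Of 13 genes for breakdown and its control, 10 were called higher and 0 lower, among them the gelatinase MMP2 (5.52) and the fibroblast protease FAP (5.34). This list also held the metalloproteinase inhibitors TIMP2 (3.56), TIMP3 and TIMP4, so the count is not of degrading enzymes alone. Of 5 receptors, 4 were called higher, including the integrin chains ITGB1 (3.84) and ITGA1 (3.65) and the collagen receptor kinase DDR2 (3.69). Of 13 basement membrane partners, 10 were called higher, with the laminin chains LAMA4 at 5.17, LAMB2 at 3.32 and LAMB1 at 3.19, and 1 was called lower, the heparan sulfate proteoglycan AGRN (-1.21).

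Of the cell types that could make these transcripts, fibroblast, mural and endothelial markers were also higher in fat, while hepatic stellate markers were split. Among all genes, 30.2% were called higher in fat and 8.7% lower. With TMM scaling these shares were 16.5% and 14.2%, but the markers were counted on FPKM as deposited alone. All 6 fibroblast markers were called higher in fat (summed 949 to 2020 FPKM in fat and 8.62 to 18.4 FPKM in liver). So were all 6 mural and smooth muscle markers (386 to 889.5 FPKM and 65.5 to 90.9 FPKM) and all 6 endothelial markers (466 to 789 FPKM and 30.7 to 55.0 FPKM). Of 5 hepatic stellate markers, 3 were called higher in fat and 2 lower, LRAT, which stores vitamin A as retinyl esters, and RELN. The part of these cell types in the collagen levels was not tested.

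Within abdominal fat, the HFD samples and the ND samples were compared to ask whether collagen RNA differed between fatter HFD birds and leaner ND birds. No collagen passed the test. The abundant fibrillar and type VI genes overlapped between the diets, and the tested basement membrane chains other than COL18A1 had lower means on the log2 scale in HFD fat. Of 36 members tested with limma, 0 reached an adjusted p of 0.05 or less, against 0.00649% of all 15412 genes. An unadjusted p under 0.05 was found for 0 members, against 6.31% of all genes (2.91% higher and 3.4% lower). The log2 fold change was above 0 for 26 members, with a median of 0.11, against 44.3% of all genes, with a median of -0.03.

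The intervals show what these samples could have missed. COL3A1 had a log2 fold change of 0.11 (95% interval -0.37 to 0.59), COL1A2 of 0.08 (-0.47 to 0.64) and COL6A3 of 0.17 (-0.28 to 0.61). COL1A1 had 0.05 (-0.55 to 0.65), which turned to -0.21 without HFD fat 2, the sample with the highest type I values. COL6A1 had 0.29 (-0.21 to 0.80), and this was 0.07 without ND fat 3, the sample lowest for type VI.

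COL18A1 had the smallest p of the members in fat. With 74.9, 82.3 and 75.8 FPKM in HFD fat and 67.0, 59.99 and 73.0 FPKM in ND fat, every HFD sample was above every ND sample, and the log2 fold change was 0.22 ± 0.10 (adjusted p = 0.765 in limma). COL23A1 was the other member with separated diets, at 1.02, 1.05 and 1.95 FPKM in HFD fat and 0.85, 0.83 and 0.81 FPKM in ND fat. Its log2 fold change was 0.33 ± 0.17 (adjusted p = 0.765 in limma), and it was 0.15 without HFD fat 3. So 2 members had all HFD samples above and 0 had all ND samples above, where 5.33% and 8.14% of all genes did, 13.5% in either direction. For COL18A1 the adjusted p ranged from 0.546 to 0.928 over the other settings.

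The remaining tested basement membrane chains had lower means on the log2 scale in HFD fat, although none passed. Of 6 tested, 1 (COL18A1) had a log2 fold change above 0, and the class median was -0.19, with the same count under TMM scaling and quantile normalization. Over all genes, 44.3% were above 0, and 49.4% and 51.3% with these scalings. COL4A1 had -0.26 (95% interval -0.61 to 0.10) and COL4A2 -0.27 (-0.69 to 0.16). Without ND fat 3, the highest fat sample for both genes, COL4A1 had -0.154 and COL4A2 -0.148. The basement membrane share of collagen FPKM was 5.59% to 5.92% in HFD fat and 6.08% to 8.65% in ND fat, without overlap and without a test. The 8.65% was that of ND fat 3. The basement membrane sum itself overlapped, at 559.6, 685.7 and 591.0 FPKM in HFD fat and 719.8, 604.7 and 798.8 FPKM in ND fat. The fibrillar and other shares overlapped between the diets in fat. Of all genes tested in fat, 13.5% had fully separated diets. COL18A1 to COL4A1 was 0.229 to 0.256 in HFD fat and 0.165 to 0.183 in ND fat. In liver it was 1.46 to 1.66 on HFD and 0.969 to 1.24 on ND. This ratio was looked at by diet after its values were seen, and COL18A1 had separated diets in fat. Other ratios also separated the diets. In fat, COL4A5 to COL4A6 was 0.879 to 1.06 with HFD against 0.712 to 0.841 with ND. COL6A1 to COL6A2 was 0.689 to 0.726 there with HFD, against 0.613 to 0.672 with ND. COL4A1 to COL4A2 separated them in liver, at 1.48 to 1.57 for HFD against 1.11 to 1.43 for ND. The remaining ratios overlapped between the diets. Of all genes tested in liver, 20.1% had fully separated diets.

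Other genes of the same membranes and vessels were looked at beside these chains. Over all genes in fat, 44.3% had a log2 fold change above 0 and 6.31% an unadjusted p under 0.05 in limma. Of 13 basement membrane partners, 2 had a log2 fold change above 0 in fat and 1, the laminin chain LAMA5 (-0.41), had an unadjusted p under 0.05. Of 6 endothelial markers, 0 were above 0, with a median of -0.37, and VWF, the clotting factor carrier of endothelium, had the smallest p (-0.51, adjusted p = 0.765 in limma). The summed endothelial markers were 466 to 478 FPKM in HFD fat and 487, 599 and 789 FPKM in ND fat 1, 2 and 3. The part of endothelial cells in the type IV values was not tested. All 8 fibril-binding proteoglycans had a log2 fold change above 0 with a median of 0.26, and 1, the keratan sulfate proteoglycan LUM (0.45), had an unadjusted p under 0.05.

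In the folding list, FKBP10 (0.34) and KDELR2 (0.21), a retrieval receptor of the secretory pathway, had unadjusted p-values under 0.05 in fat, among 17 genes of which 10 were above 0. Over all genes these shares were 6.31% and 44.3%. Every partner list held 0 genes past the adjusted p in either tissue. The values of COL20A1 and COL26A1 show how far scarce or variable members spread. COL20A1 had 9.75, 25.3 and 9.29 FPKM in HFD fat and 27.9, 26.5 and 16.0 FPKM in ND fat (log2 fold change -0.74, 95% interval -1.71 to 0.23). COL26A1 had 1.91, 3.53 and 1.40 FPKM in HFD fat and 2.14, 0.52 and 0.95 FPKM in ND fat (0.59, 95% interval -0.22 to 1.40). In both genes the diets overlapped.

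Leaving out the pair of fat libraries with muscle and hepatocyte transcripts left 0 members past the adjusted p in fat, with 24 of 36 above 0. Over all genes, 6443 of 15317 were above 0 in this setting. Hepatocyte markers summed to 596 to 1000 FPKM in HFD fat and 2273 to 5062 FPKM in ND fat, and APOA1 alone, an apolipoprotein, gave 575 to 951 FPKM in HFD fat and 1526 to 2287 FPKM in ND fat. The other 6 markers summed to 3.70 to 49.1 FPKM in HFD fat, against 30.8 and 89.6 FPKM in ND fat 1 and 3 and 3536 FPKM in ND fat 2. The part of hepatocyte RNA in the fat values was not tested.

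In liver, collagens were scarce on both diets, and no member passed the adjusted p. COL1A1, COL1A2, COL3A1, COL6A1 and COL6A3 had lower means on HFD. COL6A2 was nearly equal, with means of 28.97 FPKM on HFD and 29.25 FPKM on ND. For each of these genes ND liver 2 was the highest sample. Of 29 members tested with limma, 0 reached an adjusted p of 0.05 or less, against 0.0% of all 14510 genes. An unadjusted p under 0.05 was found for 1 member, in the higher direction, against 13.9% of all genes (9.93% higher and 3.94% lower). The log2 fold change was above 0 for 14 members, with a median of -0.01, against 61.2% of all genes, with a median of 0.07. With TMM scaling 10 members and 50.7% of all genes were above 0, and with quantile normalization 7 members and 50.3% of all genes.

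COL1A1 had a log2 fold change of -0.58 (95% interval -1.59 to 0.43), COL1A2 of -0.45 (-1.41 to 0.51), COL3A1 of -0.39 (-1.196 to 0.41) and COL6A1 of -0.38 (-1.23 to 0.47). ND liver 2 was the highest liver for each of these genes. Without it, COL1A1 had -0.15 and COL3A1 -0.0348, and COL1A2 and COL6A1 turned to 0.01 and 0.03. This sample had a fibrillar sum of 193.5 FPKM, against 66.1 to 118.9 FPKM in the other livers.

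ND liver 2 was also the highest liver for SPARC, a collagen-binding matrix protein, at 228 FPKM against 76.3 to 121.5 FPKM in the others. The 5 stellate markers summed to 47.9 FPKM there, against 26.1 to 41.6 FPKM in the other livers. It was the highest liver for 4 of them, LRAT (2.86 FPKM, against 1.24 to 2.39), RELN (8.39 FPKM, against 3.91 to 6.30), DES (26.7 FPKM, against 11.99 to 22.5) and HAND2 (9.29 FPKM, against 6.66 to 9.12), but not for HGF (0.70 FPKM, against 0.41 to 1.48). The 6 mural and smooth muscle markers had their lowest liver sum there, at 65.5 FPKM against 76.0 to 90.9 FPKM, with MYH11 and RGS5 lowest and PDGFRB and TAGLN highest of the livers. The 6 fibroblast markers summed to 16.4 FPKM in ND liver 2, within the 8.62 to 18.4 FPKM of the other livers. The part of these cells in the collagen values was not tested.

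COL9A3 was the 1 member with an unadjusted p under 0.05 in liver. It had 0.52, 0.38 and 0.60 FPKM in HFD liver and 0.16, 0.29 and 0.25 FPKM in ND liver, with all HFD samples above (log2 fold change 0.28 ± 0.10, adjusted p = 0.318 in limma). Of the members, 1 had all HFD livers above and 0 all ND livers above, where 14.3% and 5.82% of all genes did, 20.1% in either direction. COL18A1 had a log2 fold change of 0.34 (95% interval -0.18 to 0.87), and 0.10 without ND liver 3, the lowest sample at 13.4 FPKM. Among the partners, PCOLCE, which speeds the trimming of fibrillar procollagen, had 40.0, 26.9 and 27.5 FPKM in HFD liver and 49.8, 63.3 and 51.6 FPKM in ND liver, without overlap (log2 fold change -0.80, adjusted p = 0.206 in limma). HSPG2, the basement membrane proteoglycan perlecan, had -0.61 (adjusted p = 0.35) and MMP15, a membrane-bound protease, -0.30 (adjusted p = 0.314). PCOLCE was the only gene with an unadjusted p under 0.05 in limma among 13 for processing and cross-linking. So was HSPG2 among 11 basement membrane partners and MMP15 among 12 genes for breakdown. The folding, proteoglycan and receptor lists had 0. Over all genes, 13.9% had such a p, and 3.94% had it in the lower direction.

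**Figure D5:**
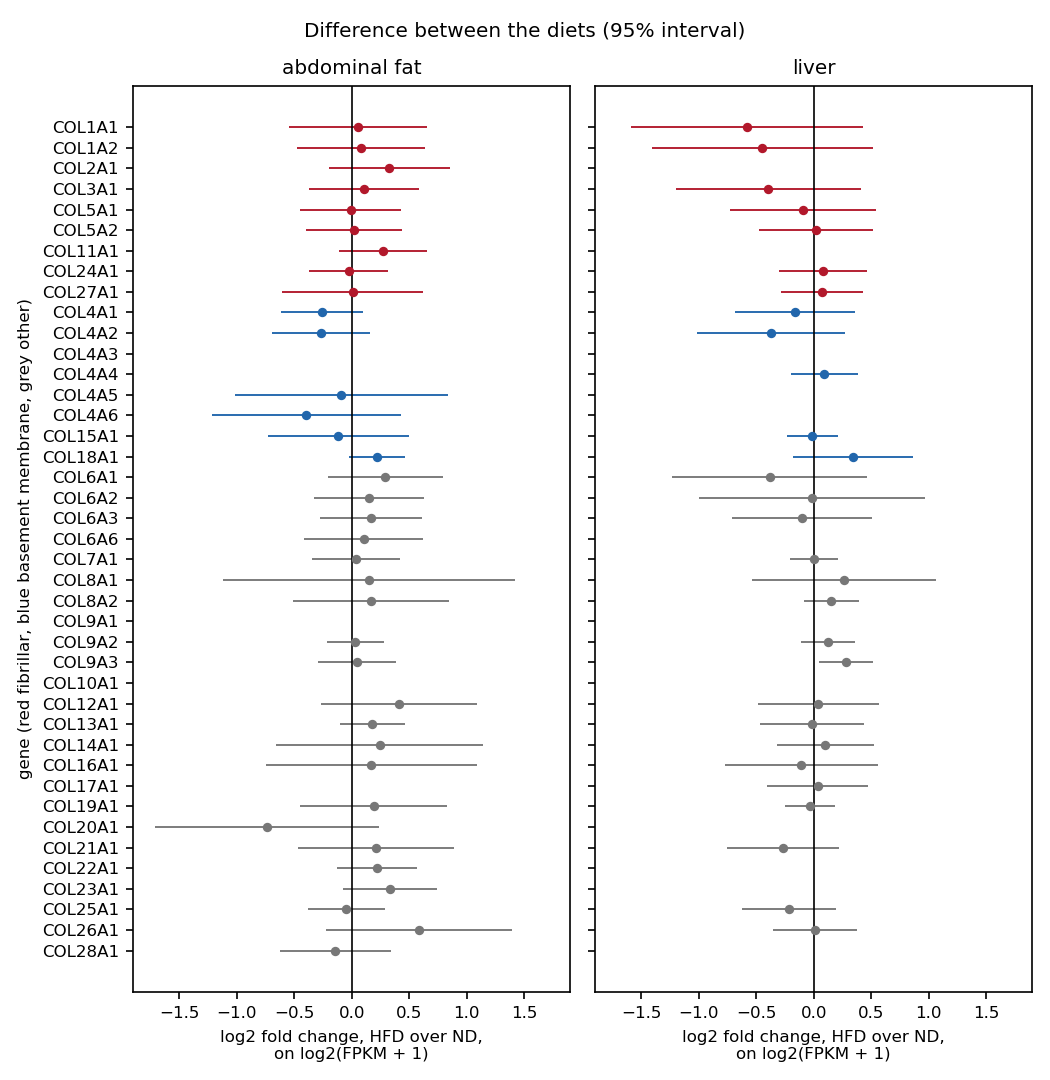
Log2 fold changes of HFD over ND on log2(FPKM + 1) in abdominal fat and in liver, 1 row per collagen gene, with 95% intervals from limma and colours by class. Genes with a mean under 0.1 FPKM in a tissue have no point there. All intervals cross 0 except that of COL9A3 in liver, whose adjusted p is 0.318.

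The diet effect in fat was tested against the diet effect in liver as an interaction of tissue and diet. Of 38 members, 0 reached an adjusted p of 0.05 or less in limma, against 0.00648% of all genes. An unadjusted p under 0.05 was found for 0 members, against 12.6% of all genes (3.39% higher and 9.21% lower). COL23A1 had the smallest adjusted p of the members at 0.492, with a difference of 0.32 ± 0.19 on the log2 scale. COL1A1 (0.63, 95% interval -0.58 to 1.85) and COL6A1 (0.68, -0.33 to 1.69) had larger differences with wider intervals.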

How the data were processed

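RNA of abdominal fat and liver was sequenced on the BGISEQ-500 platform. The authors deposited FPKM values per gene, 1 file per sample, with 2 decimals. The submitters' processing notes name HISAT2 2.0.4, Bowtie2 2.2.5 and RSEM 1.2.12. The genome build and any use of strand are not given in the sources used here, and the files hold no counts, so depth is unknown. RSEM divides reads that match several genes, so low values of related chains are uncertain.

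Groups came from the sample labels. Values were tested as log2(FPKM + 1) with limma 3.58.1 in R 4.3.3, after dropping genes whose mean was under 0.1 FPKM, with Benjamini-Hochberg adjustment over all genes. The tissue model had 4 groups of 3, and each diet comparison used only its 6 samples. The fit was tested on simulated data, and other pseudocounts, filters, scalings, priors, a block and left-out replicates were tried. Fold changes on this scale understate the change of low genes. By the study's methods fat and liver came from the same 6 birds, but the labels do not say which samples share a bird, so tissues were not treated as pairs.

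Members and lists were chosen with earlier results of these data known. Any collagen could be named. Values in every sample were given for the 3 most abundant members of each class, the extremes of the tissue difference, members with separated diets or an unadjusted p under 0.05, and members against their class. Of each partner list, at most 3 genes with the smallest p were named. COL20A1, COL26A1, SERPINH1, SPARC, P4HB, TMEM38B, LOXL4, AGRN and the single marker genes of cell types were picked after their values were seen. All 41 symbols matched the RefSeq gene table of GRCg7b, used for names and neighbours only.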

Additional observations from a re-analysis of the deposited data

How the results depend on the processing

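The collagen counts kept their direction under a smaller pseudocount, other filters, other scalings, other variance priors and a replicate block. With a pseudocount of 0.1, the members called lower in fat were 4 over both diets, 3 on HFD and 3 on ND. Those called higher over both diets were 30. Of all 15442 genes, this setting called 6396 higher and 1709 lower over both diets, with 1752 lower on HFD and 1589 lower on ND. Quantile normalization gave 2 members called lower on HFD, where 2096 of 15442 genes were. Leaving out 1 replicate gave 0 to 1, with 0 without HFD liver 2, where 1352 of 15456 genes were called lower. Without COL3A1 and COL1A1, the class shares in fat and liver were 29.6% and 21.2% for fibrillar, 13.3% and 35.6% for basement membrane and 57.1% and 43.2% for other collagens. With COL15A1 and COL18A1 counted as other, the liver shares were 13.8% for basement membrane and 40.2% for other collagens. The tissue differences of COL9A3 and COL14A1 reversed to -0.14 and -0.32 with TMM scaling and to -0.25 and -0.45 with quantile normalization, and that of COL9A2 to -0.00505 with quantile normalization. Leaving out 1 replicate at a time took the tissue difference of COL25A1 from -0.146 to 0.0131, the diet difference of COL1A1 in fat from -0.21 to 0.23, and the diet differences in liver of COL1A2 from -0.80 to 0.00679 and of COL6A1 from -0.62 to 0.0305. The cause of these changes was not tested. Over all genes, the diet calls in liver were 0, against 80 higher and 31 lower in 1 fit of all 12 samples and 58 higher and 27 lower at a log2 fold change of 0.5 with an unadjusted p of 0.001. In fat the second rule gave 8 higher and 6 lower. None of these were collagens.

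Samples of a number in fat and liver correlated at 0.07 to 0.23 in their deviations from group means, and each correlated best with its own number, a hint from the data. As 1 pair was under 0.1 and no label names a shared bird, the numbers were not taken as pairs, although the methods take both tissues from the same birds. With diet and number as a bird in a replicate block (the number alone within a tissue), 23 members were called higher and 1 lower between the tissues, and 0 in either diet comparison. Of all 15442 genes, this block called 4660 higher and 1346 lower between the tissues. Without read counts, differences among members under about 1 FPKM have no known counting error.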
